A study of Mus musculus with 7 samples.

Results

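The accessibility of chromatin at genes of the mTOR pathway and of sterol synthesis was described in regulatory T cells (Treg cells) with and without Opa1, a mitochondrial GTPase needed for fusion of the inner membrane and for cristae. The list held 39 genes, 22 mTOR signalling genes and 17 sterol genes. A peak, a stretch of DNA in which sequenced fragments pile up, was taken for a gene if it overlapped the gene, or lay within 100 kb of it with no protein-coding gene nearer. By this rule 107 of the 50213 peaks of the study belonged to these genes, 58 to mTOR signalling genes and 49 to sterol genes. Each ATAC-seq library was made from 50000 sorted cells, whose open DNA a transposase cuts and tags with adapters. All cells came from the spleens of mixed bone marrow chimeras, mice rebuilt with equal parts of CD45.1+ marrow and of donor marrow carrying CD45.2. The donors were Foxp3Cre for the 4 WT libraries and Foxp3CreOpa1fl/fl for the 3 Opa1 KO libraries, and CD45.2+CD45.1-CD4+Foxp3-YFP+ cells were sorted. Both genotypes thus carried the Cre recombinase, which the Foxp3 gene drives, so that floxed Opa1 is deleted in cells that express Foxp3. The same mice also held cells from the CD45.1+ marrow, which the sort left out.

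The mTOR kinase joins growth factor, energy and amino acid signals to cell growth. It works in mTORC1, which holds Raptor, and in mTORC2, which holds Rictor. On the lysosome, mTORC1 is recruited by the Ragulator and Rag proteins and switched on by the GTPase Rheb, while the TSC complex and the GATOR1 complex hold it back. Sterols are made from acetyl-CoA through mevalonate by enzymes whose genes are driven by the SREBP factors. SCAP carries SREBP to the Golgi, INSIG proteins retain it in the endoplasmic reticulum when sterol is plentiful, and mTORC1 is known to promote SREBP activity. In mouse Treg cells, mTORC1 signalling and the mevalonate pathway are known to take part in suppressive function.

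The bases before 5 of the transcript starts are shown for the results described below. Rheb and Mvd had the start peaks with the smallest p in their lists, Mtor and Hmgcs1 were among the most accessible, and Insig1 was the one gene with a negative fold change among the 3 genes that reached an unadjusted p under 0.05 with peaks summed. Each is the 250 bases before the start, 5′ to 3′ on the gene's strand, from RefSeq (GRCm38.p6). Capitals mark matches to CCAAT (the NF-Y box), CACGTG (the E-box) or TCACNCCAC (a sterol regulatory element), searched on both strands.
Rheb (chr5:24842362-24842611, minus strand): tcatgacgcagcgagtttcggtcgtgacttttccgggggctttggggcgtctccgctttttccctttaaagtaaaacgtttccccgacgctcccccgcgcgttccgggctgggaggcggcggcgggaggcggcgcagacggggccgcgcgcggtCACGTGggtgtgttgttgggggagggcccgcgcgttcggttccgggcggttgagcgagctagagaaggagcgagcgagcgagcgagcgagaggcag
Mtor (chr4:148448332-148448581, plus strand): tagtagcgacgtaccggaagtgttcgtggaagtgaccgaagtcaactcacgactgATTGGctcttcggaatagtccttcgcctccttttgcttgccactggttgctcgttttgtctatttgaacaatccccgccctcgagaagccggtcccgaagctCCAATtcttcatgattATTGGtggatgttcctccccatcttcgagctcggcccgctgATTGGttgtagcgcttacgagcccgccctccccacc
Mvd (chr8:122443423-122443672, minus strand): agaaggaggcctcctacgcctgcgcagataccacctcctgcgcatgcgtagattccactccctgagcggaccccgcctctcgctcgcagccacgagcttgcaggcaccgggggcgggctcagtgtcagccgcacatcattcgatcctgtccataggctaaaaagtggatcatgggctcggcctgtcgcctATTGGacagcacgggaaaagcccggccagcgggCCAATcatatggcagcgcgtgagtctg
Hmgcs1 (chr13:119690101-119690350, plus strand): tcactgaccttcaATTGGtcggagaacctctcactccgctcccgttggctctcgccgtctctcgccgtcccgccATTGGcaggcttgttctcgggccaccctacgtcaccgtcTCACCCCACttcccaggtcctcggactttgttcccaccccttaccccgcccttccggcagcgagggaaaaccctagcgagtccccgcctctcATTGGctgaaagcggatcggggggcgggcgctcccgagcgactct
Insig1 (chr5:28071162-28071411, plus strand): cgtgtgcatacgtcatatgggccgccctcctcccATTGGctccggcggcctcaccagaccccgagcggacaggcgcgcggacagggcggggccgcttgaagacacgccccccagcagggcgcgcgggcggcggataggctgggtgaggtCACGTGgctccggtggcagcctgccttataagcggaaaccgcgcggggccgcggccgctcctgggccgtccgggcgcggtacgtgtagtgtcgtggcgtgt
The table of starts matched 33 of the 39 genes, with 24 windows at 19 mTOR signalling genes and 21 windows at 14 sterol genes. CCAAT was present in 14 of the 21 sterol windows (66.7%), in 6 of the 24 mTOR windows (25.0%) and in 33.9% of the 32841 windows of all genes. At the further genes of these pathways described below, it was present in 10 of 19 sterol windows (52.6%) and in 21 of 52 mTOR windows (40.4%). CACGTG was present in 3 sterol windows (14.3%), in 3 mTOR windows (12.5%) and in 6.02% of all windows. The sterol element was present in 1 sterol window, that of Hmgcs1, where it began 137 bases before the start, in 0 of the 24 mTOR windows and in 1.05% of all windows. A match of letters is a description and does not show that a factor was bound. Only exact matches in these 250 bases were counted, so a window without a match is not shown to lack such an element. No matches overlapped in the 5 windows printed. Eif4ebp1, Deptor, Lamtor3, Sqle, Fdps and Fdft1 were not matched, so the nearer end of the gene was used in place of a start for them.

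No peak at these genes passed the test for a difference between KO and WT. Of the 107 peaks, 89 had enough counts to be tested, 50 at mTOR signalling genes and 39 at sterol genes, and edgeR's quasi-likelihood test called 0 of each (adjusted p under 0.05). Over all 38041 tested peaks 33 were called (0.0867%), 18 higher in KO (0.0473%) and 15 lower (0.0394%). An unadjusted p under 0.05 was reached by 5 of the 89 peaks (5.62%), against 9.47% of all tested peaks. They were the Rheb start peak and a Lamtor4 peak among mTOR genes, and the Mvd start peak, a distant Sqle peak and a distant Insig2 peak among sterol genes. The Insig2 peak had enough counts to be tested only through WT libraries, the group in which it was high, so its place among the 5 supports nothing. The Sqle peak met the count filter only with KO libraries, where it was high, so the same holds for its place. This share was 12.2% (10 of 82) against 8.21% without WT replicate 1, 10.1% (9 of 89) against 8.63% with loess offsets and 9.28% (9 of 97) against 8.76% without KO replicate 2. DESeq2 and limma-voom also called 0 of the member peaks, each with 5 at an unadjusted p under 0.05. The KO and WT libraries did not overlap at 5 of the 89 peaks, against 9.36% of all tested peaks. Of these, 4 were higher in all KO libraries, where the share over all tested peaks was 4.85%, and 1 was lower, where it was 4.51%. The lower one was the same Insig2 peak. Among the higher ones were the same Sqle peak and a weak peak inside Rheb. Both met the count filter only with KO libraries, so their places support nothing.

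The median log2 fold change (KO against WT) was 0.02 over the 50 mTOR peaks and 0.04 over the 39 sterol peaks, and -0.00099 over all tested peaks. Values above 0 were held by 28 mTOR peaks (56.0%) and 25 sterol peaks (64.1%), against 49.8% of all tested peaks. The mTOR median was below 0 in 3 alternatives, at -0.0061 when only library totals were used for scaling, -0.01 with loess offsets and -0.012 when peaks needed a mean count of 20 or more, and the sterol median was -0.0018 without KO replicate 2. At peaks within 1 kb of a start the medians were 0.08 over 27 mTOR peaks and 0.02 over 23 sterol peaks, beside 0.04 over all 11124 tested start peaks. With loess offsets these 3 medians were 0.05, -0.02 and 0.004. The share of start peaks above 0 was 70.4% for mTOR genes, 56.5% for sterol genes and 56.7% for all genes, and with loess offsets 55.6%, 34.8% and 50.9%. Scaling by library totals alone gave 55.6%, 43.5% and 51.7%.

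**Figure D1:**
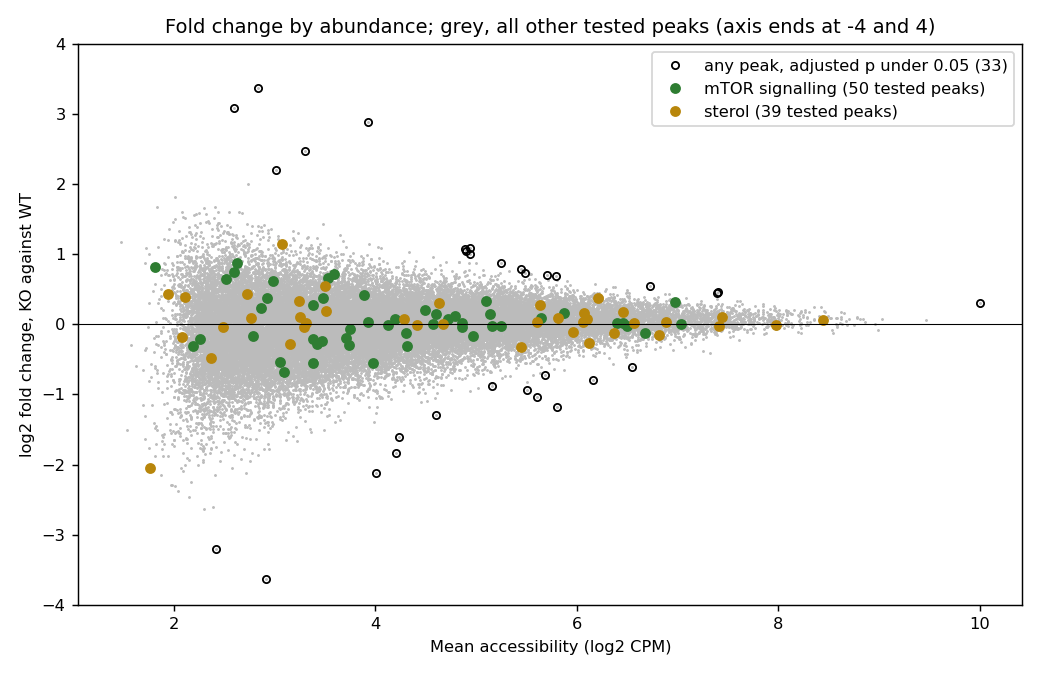
The log2 fold change between KO and WT (vertical axis) is plotted against mean accessibility in log2 CPM (horizontal axis) for every tested peak, with the 50 tested mTOR peaks in green, the 39 tested sterol peaks in gold and the 33 called peaks as open circles. No member peak is an open circle, and the member farthest from 0 is the weak Insig2 peak at -2.05.

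The libraries were alike in depth except for KO replicate 1. Totals in peaks ran from 1534394 to 2134586 counts in WT and were 3384325, 1658436 and 1948041 in KO. Between WT replicates 2 and 3 a chi-square test of halved counts at 36418 peaks found no difference beyond sampling noise (p = 0.11). At 11332 abundant peaks the same chi-square test of halved counts found a difference (p = 0.0385). Halving assumes that both mates of each pair were counted, which was not tested. WT replicates 3 and 4 were nearly as close, with a statistic per degree of freedom of 1.02 against 1.01 at the 36418 peaks. The mean of WT replicates 2 and 3 was counted as 1 sample in every mean ± SD, so that n = 3 in each genotype. Where WT replicates 2 and 3 lay far apart, the WT SD can understate the spread of the 4 WT libraries. The tests kept all 7 libraries. The labels do not say that the libraries of a genotype came from separate mice, although they number them as replicates, so the p-values measure the spread between these libraries. At Opa1 itself 1 peak was tested, where WT libraries had 36.8 ± 1.17 CPM and KO libraries 35.0 ± 6.93 CPM. It overlaps the gene's start, the deleted exons are not given in the labels, and so it does not check the genotype. All 6 Treg and T cell markers, such as Foxp3 and Il2ra, had peaks (74 in all). Of the 5 myeloid markers Lyz2 and Csf1r had none. The summed level of the 6 myeloid peaks was 56.2 to 63.0 CPM in WT and 43.6 to 54.5 CPM in KO, without overlap, and its part in the results was not tested. The other marker sums overlapped between genotypes. Summed over the 58 mTOR peaks the level was 1376, 1447, 1478 and 1383 CPM in WT replicates 1 to 4 and 1461, 1434 and 1528 CPM in KO replicates 1 to 3. Summed over the 49 sterol peaks it was 2261, 2335, 2298 and 2186 CPM in WT and 2322, 2331 and 2288 CPM in KO. The genotypes overlapped in both sums. CPM is the count at a peak over the library's total in the tested peaks, which is less than the total in all peaks given above. It is scaled with TMM factors and set per 1000000 counts. In bulk samples, fewer cells with a site open and less opening per cell cannot be told apart.

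In these 2 lists, sterol genes had the more accessible starts. Within 1 kb of a start the median level, averaged over the 7 libraries and divided by peak length, was 146 CPM per kb for 23 sterol peaks, 64.1 CPM per kb for 28 mTOR peaks and 57.1 CPM per kb for all 12045 such peaks. The gap was smaller at the further genes of these pathways described below. There the median was 93.1 CPM per kb for 26 sterol peaks and 75.8 CPM per kb for 48 mTOR peaks. For the order of genes, the most abundant start peak of each was used, or for Fdft1 its only peak, 3387 bp from the nearer gene end. The highest were Msmo1 with 647 CPM per kb, Hmgcs1 with 428, Fdft1 with 318, Mtor with 273 and Idi1 with 248. The 20 lowest genes were 17 mTOR genes and 3 sterol genes, down to Scap with 28.9 CPM per kb, Rptor with 28.7 and Nprl2 with 25.9. Of the 38 neighbouring pairs in this order, 36 had library ranges that overlapped. The exceptions were Msmo1 above Hmgcs1 and Hmgcs1 above Fdft1. Peak length was set by the authors' peak calls, which the level per kb takes over.

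**Figure D2:**
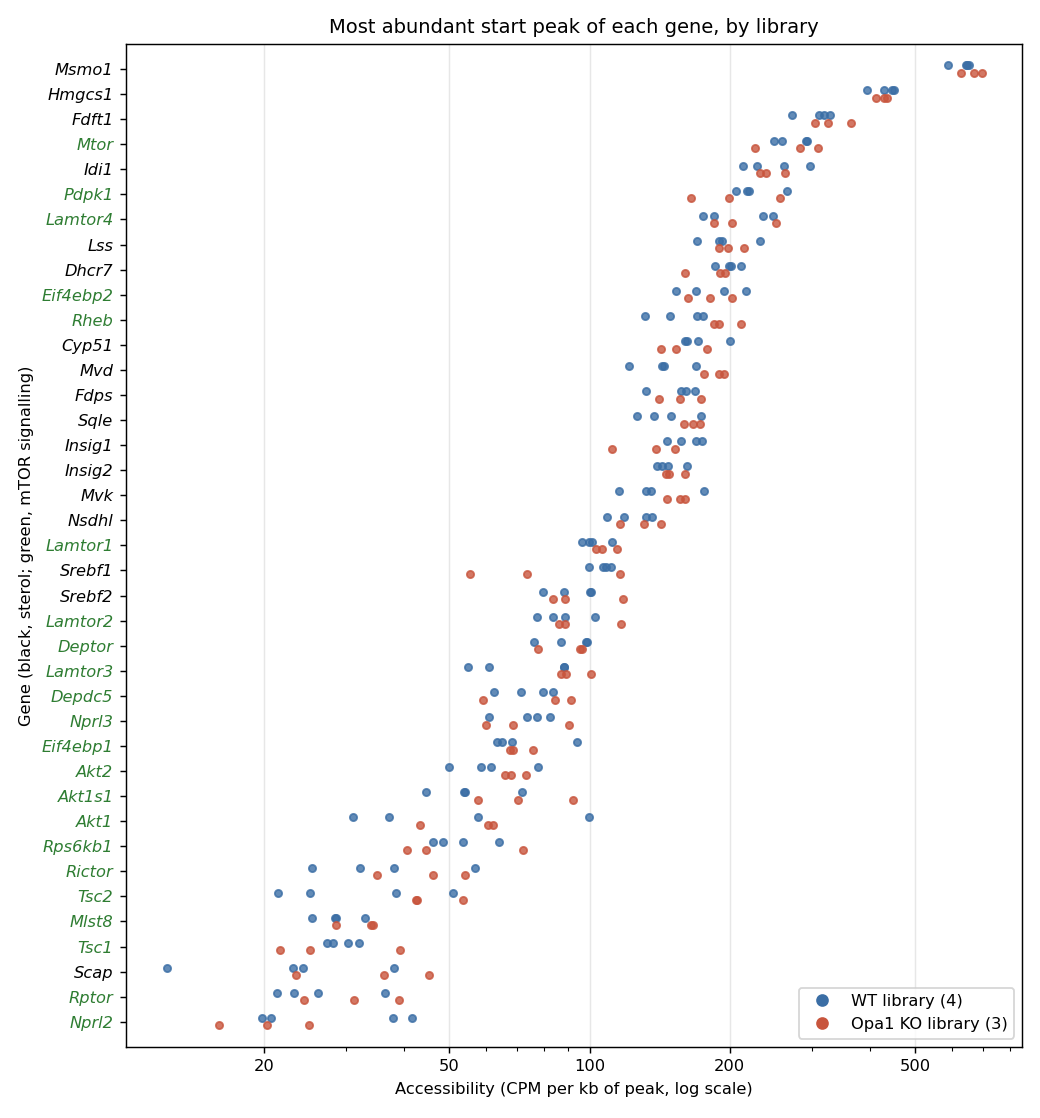
Each point is 1 library's accessibility in CPM per kb of peak (horizontal log axis) at the most abundant start peak of a gene, or for Fdft1 its only peak, with WT in blue and Opa1 KO in red and the genes (vertical axis) ordered by their mean. Points of the genotypes lie together for nearly all genes, and sterol genes (black names) hold 6 of the 10 highest places and 3 of the 20 lowest.

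Among the parts of the mTOR complexes, the start of Mtor, the kinase itself, had 131 ± 10.5 CPM in WT and 131 ± 20.2 CPM in KO (mean ± SD, n = 3 each). Its log2 fold change was 0.01, with a 95% interval from -0.20 to 0.22. This peak (chromosome 4, 148448213 to 148448693) covers the window printed above. A second Mtor peak lay inside the gene, 60944 bp from the start (148509526 to 148510008). It had 5.81, 14.9, 9.63 and 10.5 CPM in WT replicates 1 to 4 and 6.16, 5.06 and 7.55 CPM in KO replicates 1 to 3. WT replicate 1 lay among the KO libraries. The KO libraries alone did not meet the count filter, so this inner Mtor peak was tested only with WT libraries, where it was high. Its log2 fold change of -0.67 is given as a description with no test. Rptor, which encodes Raptor, had 9.18 ± 1.92 CPM in WT and 11.4 ± 2.66 in KO at its start. Rictor had 22.5 ± 7.82 and 24.7 ± 5.31 CPM at its start. A weaker Rictor peak 485 bp from the start (chromosome 15, 6708866 to 6709179) had 7.75, 5.42, 12.04 and 11.1 CPM in WT and 9.86, 16.4 and 18.3 CPM in KO. KO replicate 1 lay within the WT range, and the log2 fold change of 0.66 (SE 0.34) was not called (adjusted p = 0.543). Mlst8, a subunit of both complexes, had 23.6 ± 2.47 and 25.8 ± 2.63 CPM.

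Deptor and Akt1s1 encode inhibitors of the kinase. The Deptor peak at its gene end had 36.0 ± 2.57 CPM in WT and 35.7 ± 4.22 in KO. Another, 5434 bp outside the gene (chromosome 15, 55106574 to 55106883), had 12.6, 8.12, 10.8 and 16.9 CPM in WT and 8.63, 6.32 and 9.71 CPM in KO. WT replicate 2 fell among the KO values, and the log2 fold change was -0.56 (SE 0.36, adjusted p = 0.656). Akt1s1, which encodes PRAS40, had 10.2 ± 2.08 and 12.9 ± 3.07 CPM at the peak nearest its tabulated start. Its more abundant peak lay 1052 bp from that start and also touched Tbc1d17. In all, 9 of the 107 peaks touched another protein-coding gene, and a count there cannot be given to either gene.

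Rheb, the GTPase that turns mTORC1 on, had the smallest p of the mTOR list. Its start peak (chromosome 5, 24842329 to 24843058) had 109, 124, 128 and 95.9 CPM in WT replicates 1 to 4. It had 138, 135 and 154 CPM in KO replicates 1 to 3, all above the highest WT library. The means were 110 ± 14.99 and 142 ± 10.5 CPM. The log2 fold change was 0.32 (SE 0.11, 95% interval 0.11 to 0.54), and the peak was not called (adjusted p = 0.273). The window printed above, with its CACGTG, lies in this peak. A weak peak inside Rheb, 16246 bp from the start (24825787 to 24826115), had 1.94, 6.77, 3.61 and 5.80 CPM in WT. In KO it had 6.78, 11.4 and 7.01 CPM, the lowest of them just above the highest WT library. The WT libraries alone did not meet the count filter, so this peak was tested only with KO libraries, where it was high. Its log2 fold change of 0.88 is given as a description with no test. The 2 remaining Rheb peaks had too few counts to be tested. With its 4 peaks summed, Rheb gave 0.33 on the log2 scale (SE 0.10, adjusted p = 0.125 over 13288 genes). Across the alternative fits the adjusted p of this sum was 0.0827 at the lowest, so it was never called.

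The TSC complex switches Rheb off. Tsc1 had 24.5 ± 1.77 CPM in WT and 23.4 ± 7.61 in KO at its start. Tsc2 had 12.6 ± 2.71 and 17.5 ± 2.38 CPM, with a 95% interval of the log2 fold change from -0.18 to 1.02, at a peak shared with Nthl1. Upstream of the TSC complex, Pdpk1 encodes the kinase that activates Akt. It had 104 ± 8.49 and 96.6 ± 21.5 CPM at its start, and all 6 of its peaks were tested. Akt1 had 15.3 ± 8.12 and 17.3 ± 3.26 CPM, where WT replicate 2 stood highest with 31.1 CPM. Akt2 had 53.4 ± 8.78 and 62.1 ± 3.33 CPM.

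The GATOR1 complex of Depdc5, Nprl2 and Nprl3 restrains mTORC1 when amino acids are short. The Nprl2 start peak (chromosome 9, 107541734 to 107542342), which also touched Cyb561d2, had 12.6, 23.02, 12.04 and 25.3 CPM in WT and 12.3, 15.2 and 9.71 CPM in KO. The WT libraries fell into a low pair and a high pair, and the KO libraries lay around the low pair. The log2 fold change was -0.56 (SE 0.30, adjusted p = 0.573). Depdc5 had 25.9 ± 1.52 and 27.1 ± 5.86 CPM, and Nprl3 29.3 ± 1.15 and 28.9 ± 6.18 CPM. Single WT libraries spread more widely, from 21.7 to 28.9 CPM at Depdc5 and from 24.1 to 32.5 CPM at Nprl3.

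The Ragulator, which anchors mTORC1 at the lysosome, was covered by 4 genes. Lamtor1 had 49.3 ± 3.43 CPM in WT and 51.5 ± 2.71 in KO, at a peak that also touched Tomt. Lamtor2 had 33 ± 3.14 and 37.2 ± 6.59 CPM. The single Lamtor3 peak (chromosome 3, 137918224 to 137918647) had 37.3, 25.7, 37.3 and 23.2 CPM in WT and 37.6, 36.7 and 42.6 CPM in KO. WT replicates 1 and 3 were level with the lower KO libraries, and the log2 fold change was 0.33 (SE 0.20, adjusted p = 0.628). Lamtor4 had 80.0 ± 14.4 and 85.0 ± 13.7 CPM at its start. A second Lamtor4 peak, inside the gene and 1634 bp from the start (chromosome 5, 138257116 to 138257298), had 10.2, 14.2, 9.03 and 4.74 CPM in WT and 15.4, 11.4 and 19.4 CPM in KO. KO replicate 2 lay below WT replicate 2, and the log2 fold change was 0.72 (SE 0.33, adjusted p = 0.488).

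Rps6kb1, Eif4ebp1 and Eif4ebp2 encode the S6 kinase and the translation repressors through which mTORC1 acts on protein synthesis. At their starts Rps6kb1 had 36.8 ± 4.84 CPM in WT and 37.6 ± 12.3 in KO, with a peak shared with Tubd1. Eif4ebp1 had 30.4 ± 6.78 and 28.7 ± 1.83 CPM, and Eif4ebp2 had 87.1 ± 13.2 and 89.9 ± 9.72 CPM. The log2 fold changes of these peaks were -0.02, -0.04 and -0.02.

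In the sterol list, the regulators came first. Srebf1 encodes SREBP1, which in liver is known mainly for fatty acid genes. Its most abundant start peak (chromosome 11, 60210279 to 60210735) had 45.5, 48.7, 50.6 and 49.5 CPM in WT and 53.0, 25.3 and 33.4 CPM in KO. KO replicate 1 was the highest of the 7 libraries and the other KO libraries the lowest, and the log2 fold change of -0.32 (SE 0.18) was not called (adjusted p = 0.596). Srebf2, which encodes the factor of sterol genes, had 54.7 ± 6.49 and 57.8 ± 11.2 CPM at its start. Scap, the escort of SREBP, had a weak start peak (chromosome 9, 110333135 to 110333527) with 4.84, 14.9, 9.03 and 9.48 CPM in WT and 14.2, 17.7 and 9.17 CPM in KO. The genotypes overlapped, and the log2 fold change was 0.54 (SE 0.35, adjusted p = 0.659).

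The INSIG genes encode the proteins that retain SCAP. Insig1, itself a target of SREBP, had 2 abundant peaks about its start. The window printed above lies in the upstream one (28071013 to 28071471), with 65.0 ± 3.75 CPM in WT and 59.5 ± 7.16 in KO. The one 342 bp inside the gene (chromosome 5, 28071754 to 28072217) had 67.8, 78.5, 80.7 and 72.7 CPM in WT and 64.4, 70.8 and 51.8 CPM in KO. KO replicate 2 lay above WT replicate 1, and the log2 fold change was -0.26 (SE 0.14, adjusted p = 0.558). With its 4 peaks summed, Insig1 gave -0.22 on the log2 scale (SE 0.10, adjusted p = 0.41). Insig2 had 115 ± 6.23 and 120 ± 6.03 CPM at its most abundant start peak. A weak peak 13491 bp outside Insig2 (chromosome 1, 121346153 to 121346395) had 5.81, 5.42, 6.02 and 3.16 CPM in WT and 1.23, 0 and 2.16 CPM in KO, all below the lowest WT library. It rested on 36 counts over the WT libraries and 8 over the KO libraries. No KO library came near the level that the count filter asks of 3 libraries, so the peak was tested only because it was high in WT. Its fitted log2 fold change of -2.05, which depends on the prior count of the fit, is given as a description with no test.

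**Figure D3:**
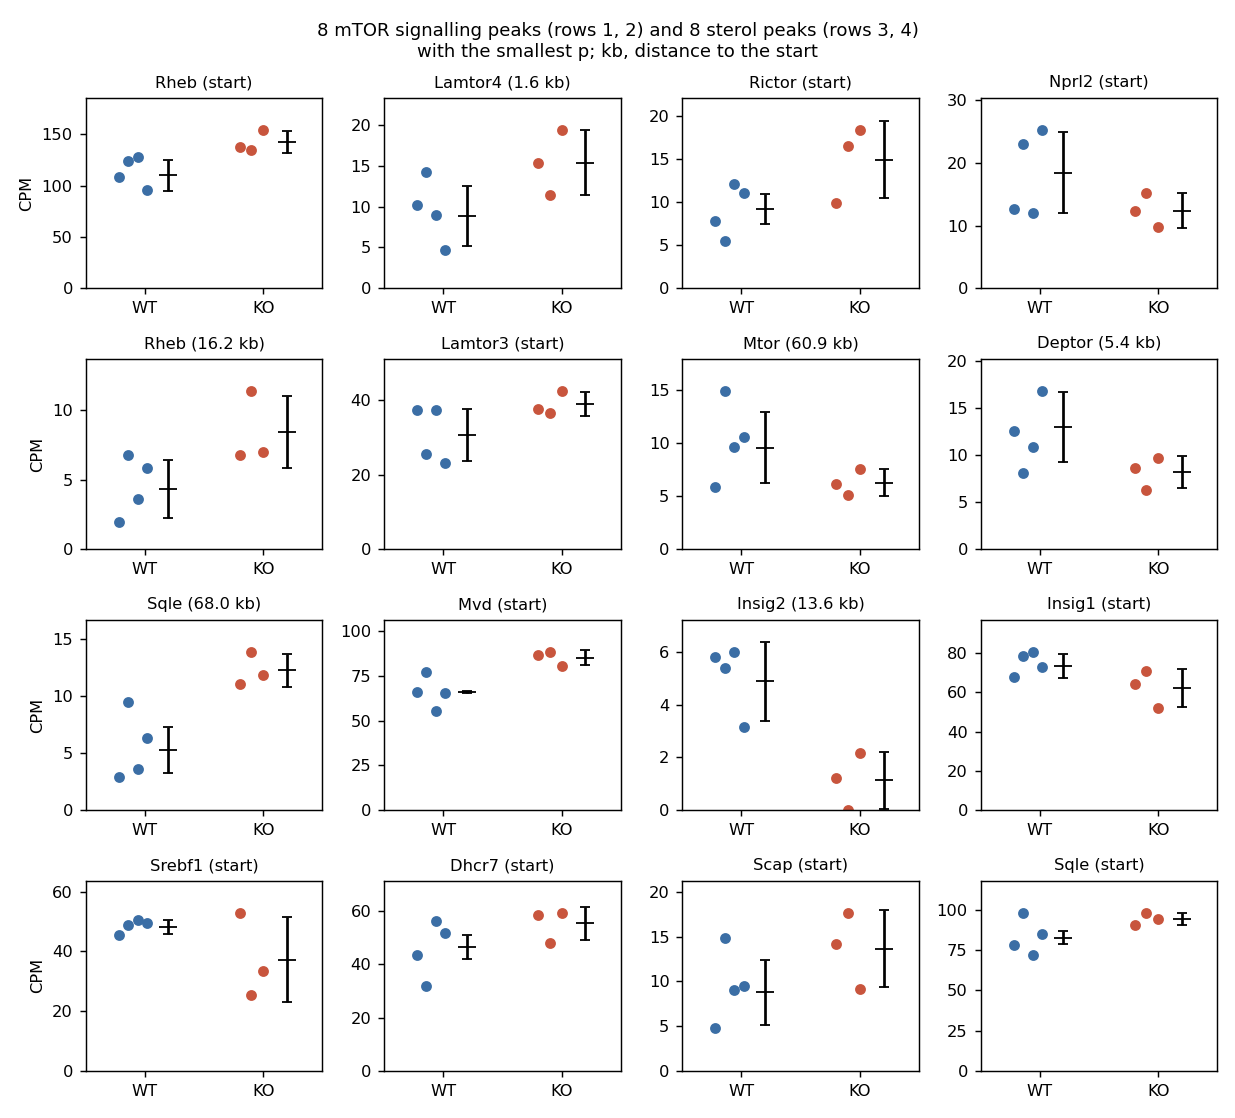
Accessibility in CPM (vertical axes, each from 0) is plotted by genotype (horizontal axes) for the 8 mTOR signalling peaks and the 8 sterol peaks with the smallest p, with 1 point per library and, beside the points, the mean and SD (n = 3, WT replicates 2 and 3 averaged). The KO points do not overlap the WT points at the start of Rheb, at Mvd, at the distant Sqle and Insig2 peaks and, narrowly, at the inner Rheb peak, and overlap in the other panels.

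The enzymes are described in the order in which they act. Hmgcs1 makes HMG-CoA. Its single peak (chromosome 13, 119689928 to 119690516), which covers the printed window with the sterol element, had 251 ± 17.5 CPM in WT and 250 ± 6.79 in KO. The 95% interval of its log2 fold change, from -0.17 to 0.15, was among the narrowest of the list. Mvk, the mevalonate kinase, had 62.1 ± 9.40 and 71.3 ± 3.28 CPM at a peak shared with Mmab. Mvd decarboxylates mevalonate diphosphate, and its start peak (chromosome 8, 122443300 to 122443756) had 65.9, 77.2, 55.4 and 65.3 CPM in WT replicates 1 to 4. In KO it had 86.6, 88.5 and 80.4 CPM, all above the highest WT library. The means were 65.8 ± 0.475 and 85.1 ± 4.24 CPM, where the WT SD is narrow because the averaged replicates 2 and 3 were the highest and lowest WT libraries. The log2 fold change was 0.37 (SE 0.13, 95% interval 0.11 to 0.64), and the peak was not called (adjusted p = 0.318). With its 2 peaks summed, Mvd gave 0.30 on the log2 scale (SE 0.12, adjusted p = 0.309).

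Idi1, the isomerase that makes dimethylallyl diphosphate, had 165 ± 23.7 and 168 ± 10.99 CPM. Fdps, which makes farnesyl diphosphate, had 67.5 ± 4.68 and 67.3 ± 7.08 CPM. Fdft1, the squalene synthase, had 166 ± 15.1 and 181 ± 16.6 CPM at its only peak. Sqle, the squalene epoxidase that is a control point of the pathway, had a peak at its gene end (chromosome 15, 59314652 to 59315219) with 78.0, 98.2, 71.7 and 84.8 CPM in WT and 90.3, 98.0 and 94.4 CPM in KO. WT replicate 2 was the highest of all libraries there, and the log2 fold change was 0.18 (SE 0.12, adjusted p = 0.688). A weak peak 67965 bp from Sqle (59246808 to 59247127) had 2.91, 9.48, 3.61 and 6.32 CPM in WT and 11.1, 13.9 and 11.9 CPM in KO, all above the highest WT library. The WT libraries alone did not meet the count filter, so this peak was tested only with KO libraries, where it was high. Its log2 fold change of 1.15 is given as a description with no test. Distance alone does not show that the site acts on Sqle.

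Lss closes the sterol rings and had 92.9 ± 2.87 CPM in WT and 95.7 ± 6.16 in KO, where single WT libraries ran from 81.3 to 111 CPM. Cyp51, the demethylase that acts next, had 119 ± 14.3 and 107 ± 12.7 CPM. Msmo1, a later demethylation enzyme, had 339 ± 19.0 and 357 ± 18.8 CPM, the highest level per kb of all 39 genes, with a log2 fold change of 0.06 (95% interval -0.09 to 0.21). Nsdhl, its partner enzyme, encoded on the X chromosome, had 69.0 ± 6.42 and 70.3 ± 6.97 CPM at a peak that also touched Cetn2. Dhcr7 makes cholesterol in the last step. It had 84.8 ± 4.32 and 78.2 ± 8.14 CPM at an inner start. At its outer start (chromosome 7, 143822750 to 143823214), which also touched Nadsyn1, it had 43.6, 31.8, 56.0 and 51.6 CPM in WT and 58.5, 48.0 and 59.3 CPM in KO. KO replicate 2 lay within the WT range, and the log2 fold change was 0.28 (SE 0.17, adjusted p = 0.626).

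Counts of all peaks of a gene were also summed, which gives genes with several weak sites more counts. All 39 genes were tested in this way and 0 were called, where 46 of 13288 genes were (0.346%). An unadjusted p under 0.05 was reached by Rheb, Mvd and Insig1, 3 of the 39, where the share over all genes was 11.4%. The log2 fold changes ran from -0.56 at Nprl2 to 0.41 at Tsc2, each with 1 peak, and the median was 0.02. The 95% interval lay within 1.5-fold in either direction for 18 of the 22 mTOR genes and 16 of the 17 sterol genes, so a larger difference lay outside the interval at those genes. The exceptions were Mlst8, Tsc2, Lamtor3, Nprl2 and Scap. For single peaks, 17 of 50 mTOR peaks and 18 of 39 sterol peaks had such an interval, and at the rest a difference of 1.5-fold was not resolved at this depth.

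**Figure D4:**
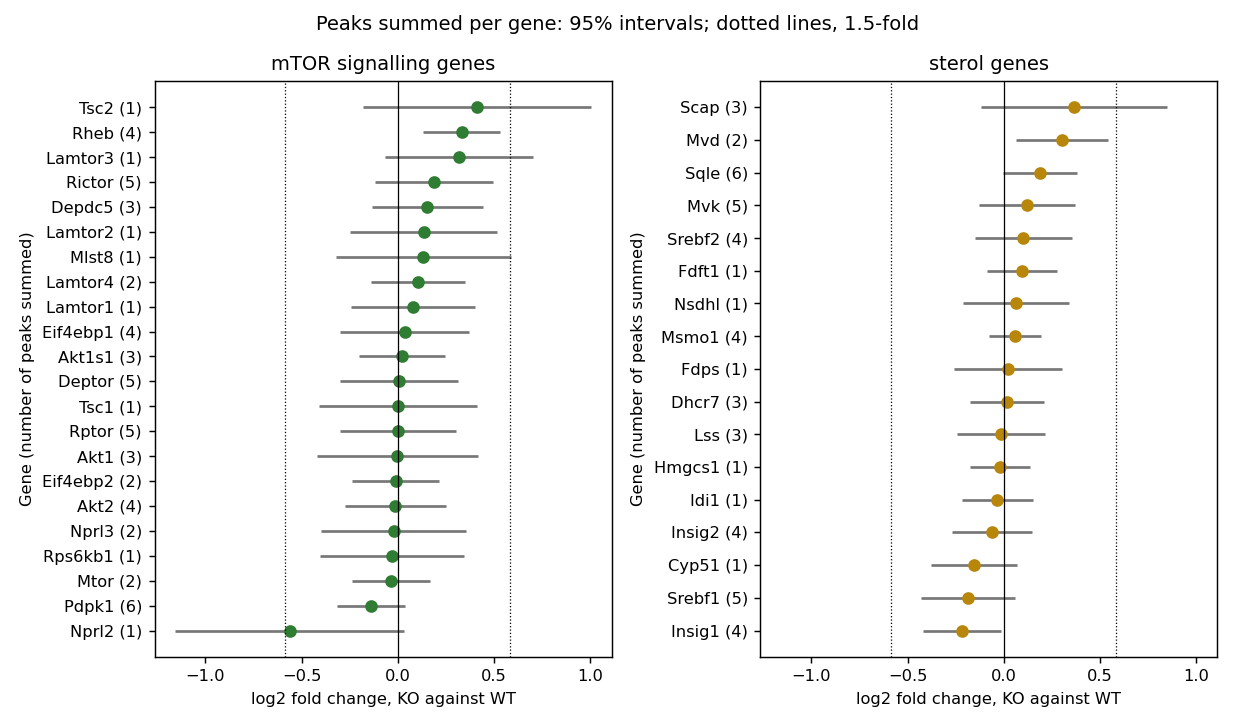
The log2 fold change between KO and WT (horizontal axes) with its 95% interval is shown for each gene (vertical axes) after summing the counts of its peaks, whose number stands in brackets, with dotted lines at 1.5-fold. The intervals of Rheb and Mvd lie above 0 and that of Insig1 below 0 before adjustment over all genes, and all others include 0.

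Further genes of these pathways were counted in the same fit. At 42 other mTOR pathway genes, such as Rag GTPases, sestrins and GATOR2 subunits, 155 of 190 peaks were tested and 0 were called, with 12 at an unadjusted p under 0.05 (7.74%) and a median log2 fold change of 0.03. The smallest p was inside Ulk1, the kinase that starts autophagy and is held back by mTORC1 (chromosome 5, 110807997 to 110808597). It had 38.8, 27.1, 40.3 and 17.9 CPM in WT and 26.8, 17.7 and 12.9 CPM in KO, with overlap (log2 fold change -0.64, SE 0.25, adjusted p = 0.369). The next were 2 peaks at Larp1, a repressor of ribosomal protein mRNAs that mTORC1 inhibits. The one inside the gene had 8.72, 5.42, 6.02 and 9.48 CPM in WT and 3.08, 2.53 and 3.24 CPM in KO. No KO library reached the level that the count filter asks of 3 libraries, so this peak was tested only because it was high in WT. Its log2 fold change of -1.31 is given as a description with no test. The other, 20345 bp outside the gene, was lower in all KO libraries (log2 fold change -0.41, SE 0.17, adjusted p = 0.417). Of 23 other sterol genes, 22 had peaks, 69 of 84 peaks were tested and 0 were called, with a median log2 fold change of 0.02. Among them were a peak at Abca1, a cholesterol exporter, lower in all KO libraries (log2 fold change -0.45, SE 0.23, adjusted p = 0.545), and a peak inside Npc1, which moves cholesterol out of lysosomes (-0.63, SE 0.35, adjusted p = 0.575).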

How the data were processed

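Raw counts for every peak in 7 libraries were deposited as 1 table. Per the submitters' processing notes, Trimmomatic 0.36 was used with BWA 0.7.16 and mm10, MACS2 2.1.1 with bedtools 2.25.0, and Picard 2.9.4 as well as SAMtools 1.9. The sources used here do not give their settings, how peaks were merged or whether reads were shifted for the transposase, a step that moves peak edges by a few bases. Positions are as deposited, and whether starts count from 0 or 1 is not stated. Between 78.0% and 86.3% of counts per library were even, as counting both mates of a pair would give, in which case counts overstate fragments.

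Peaks were assigned with a RefSeq GRCm38.p6 gene table. The test was edgeR 4.0.16 (quasi-likelihood, robust, genotype as the only term) in R 4.3.3 after filterByExpr (minimum count 10, total 15) with TMM factors and Benjamini-Hochberg adjustment over all tested features, and adjusted p values are from it unless another tool is named. Alternatives used DESeq2 1.42.0 and limma 3.58.1, other scalings and filters, halved counts, a replicate block and left-out libraries. The procedure was also run on simulated counts, with differences placed only at peaks with a mean count of 20 or more. Those counts did not copy the excess of even counts, so that run does not show how the procedure performs on these data. Full values are given for the 8 peaks with the smallest p in each list, and for each gene its most abundant start peak. The upstream Insig1 peak was added after its values were seen. The members and lists were chosen with earlier results of these data known. Python 3.11.15, pandas 2.3.3 and matplotlib 3.10.9 were used. Some results for single genes of the further lists are not reported here.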

Additional observations from a re-analysis of the deposited data

Results flagged for a closer look

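At 49 measures (the peaks given with values and the summed levels of both lists), the highest or lowest of the 4 WT libraries was compared with the gap that Dixon's test allows, and 2 libraries stood apart. Chance flags about 1 in 20 such groups. At the Eif4ebp1 start peak WT replicate 1 had 38.3 CPM, where the other WT libraries had 25.7 to 27.7 CPM, and at the Msmo1 start peak WT replicate 4 had 317 CPM, where the others had 347 to 352 CPM. WT replicates 2 and 3 were taken as separate libraries here.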

How the results depend on the processing

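The count of called peaks stayed at 0 for mTOR signalling genes, for sterol genes and for the 39 genes with peaks summed in all 17 alternative fits, and so did the list counts with peaks limited to 10 kb of the gene or 1 kb of a start. All 311 values of the 16 named peaks and of Rheb, Mvd and Insig1 with peaks summed kept their direction in the alternatives that gave a value. None was called there, with a lowest adjusted p of 0.161 for a single peak. These peaks and genes were picked for a small p in the main fit to the same libraries. Their direction was thus nearly fixed in advance, and keeping it supports nothing. They include the peaks given above with no test. The number of called peaks over all genes was 55 with DESeq2 and with limma-voom, 84 with counts halved, 60 when peaks needed a mean count of 20 or more, and 15 to 43 without 1 library, with 18 without WT replicate 1, 15 without KO replicate 1 and 16 without KO replicate 3, where it was 33 with all libraries. The cause was not tested. With the replicate number as a block it was 13. Correlations of deviations between libraries with the same number were -0.01, 0.004 and 0.01. Halved counts differed little beyond sampling noise between libraries of a genotype. Correlations near 0 therefore cannot decide whether the numbers pair the samples. Depth limits the weak peaks: 18 of the 107 had too few counts to be tested, and the median standard error of a log2 fold change was 0.26 over the 89 that were.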

Other observations

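Of the 18 member peaks with too few counts to be tested, the one with the smallest p in the fit without a filter lay inside Akt2, which encodes a kinase upstream of mTORC1 (chromosome 7, 27608227 to 27608467). It was chosen after its values were seen. It had 4.84, 6.77, 6.02 and 2.11 CPM in WT replicates 1 to 4 and 0, 1.26 and 1.08 CPM in KO replicates 1 to 3, from 34 counts in WT and 4 in KO. All KO libraries lay below all WT libraries, and the peak was not called there (adjusted p = 0.32).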
